A study of Homo sapiens with 8 samples.

Results

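The mitochondrial genome transcripts are the 37 genes whose symbol begins with MT- in both deposited count tables, out of 58828 genes listed. They are 13 mRNAs, the 2 rRNAs MT-RNR1 and MT-RNR2, and 22 tRNAs, which is the full set encoded by human mitochondrial DNA. They were chosen by symbol, but the set was proposed after their counts with and without H2O2 had been seen, so the H2O2 values below are a description. Calls of edgeR for H2O2, of its difference between the lines and of its difference between the constructs come from the same libraries and are no independent evidence. The cells came from 22RV1 and DU145, long-established lines of human prostate cancer. Each had been infected with a lentiviral pLVX-TetOne-Puro construct, either empty (vector cells) or carrying HA-tagged PAGE4, a cancer/testis antigen that the study examined for its part in the oxidative stress response. The infected cells were selected with puromycin as a pool, and doxycycline, which switches the construct on, was given to all of them. Cells then received PBS or 200 mM H2O2 for 12 h. This gave 8 conditions with 1 library each, so every fold below compares 1 library with another, and each line and construct is 1 pool of cells.

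Human mitochondrial DNA is a closed circle read from both strands into long transcripts that cover many genes. The heavy-strand transcript holds 12 of the mRNAs, both rRNAs and 14 tRNAs, and the light-strand transcript holds MT-ND6 and 8 tRNAs. Most tRNAs lie between the other genes, and cutting at their ends releases the mRNAs and rRNAs. The mRNAs encode core subunits of the respiratory chain and of ATP synthase, and the rRNAs form the mitochondrial ribosome that translates them. Transcription, RNA processing and decay depend on proteins made from nuclear genes.

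Total counts per library lay between 25482984 and 43310401. PAGE4 had 0 or 1 count in the 4 vector libraries and 1001 to 1489 in the 4 PAGE4 libraries, so construct labels and counts matched. A list of 8 genes typical of 22RV1 summed to 1051 to 2155 cpm (CPM, counts scaled to the library's total) in the 22RV1 libraries and 89.8 to 118 in the DU145 libraries, and a list of 8 genes typical of DU145 summed to 240 to 395 and 1418 to 1826, respectively. By edgeR, 7 of the 7 tested genes of the first list were called higher in 22RV1 cells. Of the second list, 6 of 8 were called higher in DU145 cells and 1 in 22RV1 cells. Of all genes, 31.9% were called higher in 22RV1 and 28.5% in DU145 cells. Both lists were known beforehand to differ in these data. Whether the libraries were made by poly(A) selection or by rRNA depletion, and whether counting used strand, is not given in the sources used here. Without strand, reads of MT-ND6 and of the 8 light-strand tRNAs cannot be told apart from reads of the heavy-strand transcript that runs opposite them. In bulk RNA, fewer mitochondria in a cell and less RNA in each mitochondrion also cannot be told apart.

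Sequences are shown for genes that bear on the results: MT-TF and MT-TV, the tRNAs for phenylalanine and valine on either side of MT-RNR1; MT-TL1, the leucine tRNA that follows MT-RNR2; and MT-TI, MT-TQ and MT-TM, the tRNAs for isoleucine, glutamine and methionine that lie side by side between MT-ND1 and MT-ND2. They are reference GRCh38 sequence, 5′ to 3′ on the strand named, with the gene in capitals and 10 flanking bases in lower case.
MT-TF, chrM:567-657, + strand: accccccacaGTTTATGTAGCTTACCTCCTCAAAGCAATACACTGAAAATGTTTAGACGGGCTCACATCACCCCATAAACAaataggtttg
MT-TV, chrM:1592-1680, + strand: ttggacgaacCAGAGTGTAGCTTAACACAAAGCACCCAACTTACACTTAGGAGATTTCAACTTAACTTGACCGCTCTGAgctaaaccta
MT-TL1, chrM:3220-3314, + strand: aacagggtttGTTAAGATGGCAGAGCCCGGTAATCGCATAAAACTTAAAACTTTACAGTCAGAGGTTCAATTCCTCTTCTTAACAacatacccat
MT-TI, chrM:4253-4341, + strand: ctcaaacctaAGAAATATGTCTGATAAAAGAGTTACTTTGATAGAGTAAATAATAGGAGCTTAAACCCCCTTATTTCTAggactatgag
MT-TQ, chrM:4319-4410, − strand: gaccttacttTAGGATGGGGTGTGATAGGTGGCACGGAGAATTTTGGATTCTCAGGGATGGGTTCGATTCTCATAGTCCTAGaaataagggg
MT-TM, chrM:4392-4479, + strand: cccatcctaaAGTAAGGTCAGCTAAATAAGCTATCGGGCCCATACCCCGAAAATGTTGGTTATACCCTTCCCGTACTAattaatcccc
MT-TM begins 1 unannotated base after MT-TQ, and MT-TI and MT-TQ, on opposite strands, share 3 bases. A read longer than such a gene runs into its neighbours, and reads that lie over more than 1 gene may have been left out of the counts. The tRNA counts are therefore counts of reads assigned to genes of 59 to 75 bases, not amounts of mature tRNA. Of the 5 tRNAs with the highest mean counts, 4 lie beside an unannotated stretch of at least 12 bases: MT-TN with a mean of 3386 counts, MT-TC with 1443, MT-TP with 1263 and MT-TY with 812. The fifth was MT-TL1, with 970. MT-TF, also beside an unannotated stretch, had the lowest mean, 6.75 counts.

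The 37 genes together took 8.97% to 16.5% of all counts. In 22RV1 vector cells they took 12.3% with PBS and 9.19% with H2O2, and in 22RV1 PAGE4 cells 10.2% and 8.97%. The DU145 shares were 16.5% and 11.2% for the vector and 14.6% and 10.9% for PAGE4. The share was lower with H2O2 in each of the 4 pairs, and the 95% exact binomial interval of any of these shares reached at most 0.0133 percentage points from it. Such intervals cover counting error only.

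**Figure D1:**
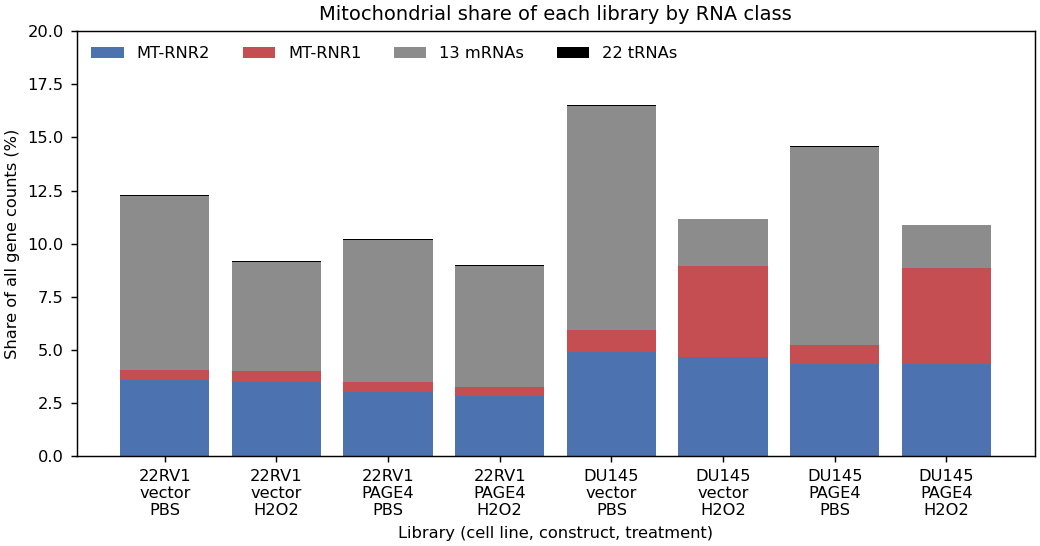
Stacked bars give the share of all gene counts (%) in each of the 8 libraries taken by MT-RNR2, MT-RNR1, the 13 mRNAs and the 22 tRNAs. The grey mRNA part falls to 2.19% and 2.01% in the DU145 libraries with H2O2 while the red MT-RNR1 part grows to 4.32% and 4.54%. The tRNA part is at most 0.0638% and is hardly visible.

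The classes did not move together, and they moved differently in each line. The mRNAs took 8.19% of counts in 22RV1 vector cells with PBS and 5.17% with H2O2, and 6.71% and 5.70% in 22RV1 PAGE4 cells. In DU145 cells they took 10.5% with PBS and 2.19% with H2O2 in vector cells, and 9.30% and 2.01% in PAGE4 cells. On counts normalized within a line, the mRNA total was 4.90-fold and 4.62-fold lower with H2O2 in the DU145 pairs, against 1.71-fold and 1.28-fold in the 22RV1 pairs. The rRNAs made up 33.0% to 43.3% of mitochondrial counts in the 4 22RV1 libraries and 35.9% in both DU145 libraries with PBS. They made up 80.3% and 81.5% in the DU145 libraries with H2O2.

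MT-RNR1, the rRNA of the small ribosomal subunit (chrM:648-1601), and MT-RNR2, that of the large subunit (chrM:1671-3229), lie next to each other with only MT-TV between them. MT-RNR2 had the highest count of the set in every library but that of DU145 PAGE4 cells with H2O2, where MT-RNR1 had more. Its count in DU145 vector cells was 1475650 with PBS and 1213683 with H2O2, and in DU145 PAGE4 cells 1284518 and 1143539. After normalization its log2 fold change with H2O2 lay between -0.21 and -0.00 in the 4 pairs. MT-RNR1 had 313774 counts with PBS and 1128817 with H2O2 in DU145 vector cells, and 267290 and 1198019 in DU145 PAGE4 cells. These are folds of 4.07 and 5.02 after normalization. In 22RV1 cells MT-RNR1 had 196609 and 179047 counts in vector cells and 186459 and 108877 in PAGE4 cells, with log2 fold changes of 0.09 and -0.28. MT-TV, between the rRNAs, had 1523 counts with PBS and 47 with H2O2 in DU145 vector cells, and 1557 and 12 in PAGE4 cells. In the H2O2-treated DU145 libraries, therefore, neighbouring genes of the same transcript were higher (MT-RNR1), nearly level (MT-RNR2) and far lower (MT-TV).

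A list of 10 RNAs that carry no poly(A) tail was counted in the same libraries, since its level bears on how the libraries captured untailed RNA. It summed to 6.24 cpm with PBS and 10.0 with H2O2 in DU145 vector cells, and to 5.54 and 17.3 in DU145 PAGE4 cells. In 22RV1 cells it summed to 12.999 and 18.2 with the vector and 13.7 and 20.1 with PAGE4. The sum was higher with H2O2 in each of the 4 pairs. Of the 8 members tested with edgeR, 5 had a log2 fold change above 0 over the 4 pairs and 3 below. In that test 1 was called higher and 0 lower, beside 8.89% and 11.2% of all genes. It was SNORD3A, the U3 RNA of the nucleolus (log2 fold change 2.56, SE 0.68, adjusted p = 0.0349, up to 0.115 with 1 pair left out). SNORD3A rose more in DU145 cells (difference 2.88, adjusted p = 0.0212), a call lost without either PAGE4 pair. Its normalized counts with PBS and H2O2 were low: 8.35 and 78.7, and 2.82 and 129, in DU145 vector and PAGE4 cells, and 13.2 and 53.0, and 16.8 and 21.1, in 22RV1 cells. Histone genes, whose mRNAs also lack the tail, summed to 140 to 159 cpm with PBS and 153 to 201 with H2O2. Their part in the change of MT-RNR1 was not tested.

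Levels of the 13 mRNAs differed widely under PBS although 12 of them start from the same long transcript. Levels between genes are compared here as cpm per kb of gene. In 22RV1 cells MT-CO2, which encodes a subunit of cytochrome c oxidase, was highest with 14855 in vector cells and 12097 in PAGE4 cells, followed by MT-CO1 of the same enzyme with 12998 and 11677. In DU145 cells MT-ATP6, a subunit of ATP synthase, had 16018 with the vector and 13580 with PAGE4, and MT-CO2 had 15241 and 13380. Each order held in both PBS libraries of its line, although the ranges over the 2 libraries overlapped. The 2 libraries differ in construct and are not replicates, so the spread of these orders was not measured. MT-ND5 and MT-ND6, both subunits of complex I, lay at 2452 to 3077 and 2541 to 3210 in 22RV1 cells and 3187 to 3396 and 3273 to 3472 in DU145 cells. MT-ND3, also of complex I, was at 760 to 1199 in 22RV1 cells and 2888 to 3123 in DU145 cells.

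**Figure D2:**
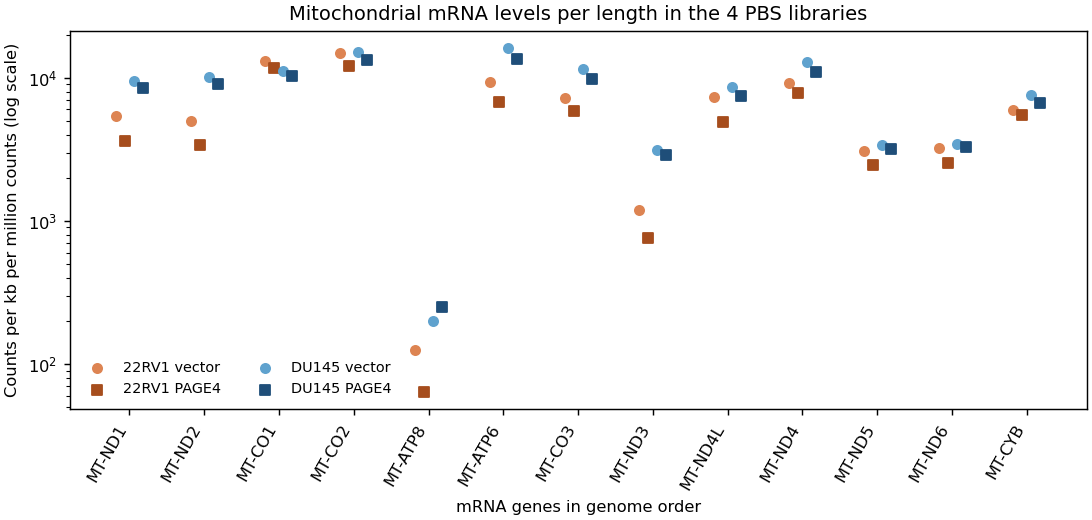
Points give the level of each of the 13 mRNAs, in cpm per kb of gene on a log axis, in the 4 PBS libraries, with genes in genome order. MT-ATP8 lies at 64 to 248, under all others, and MT-ND1, MT-ND2 and MT-ND3 lie higher in DU145 than in 22RV1 cells.

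MT-ATP8 was lowest in each PBS library, at 125 and 64 in 22RV1 cells and 201 and 248 in DU145 cells. It encodes a small subunit of ATP synthase, and its coding sequence overlaps that of MT-ATP6 by 46 of its 207 bases, shown here in capitals on the + strand:
MT-ATP8/MT-ATP6 overlap, chrM:8517-8582, + strand: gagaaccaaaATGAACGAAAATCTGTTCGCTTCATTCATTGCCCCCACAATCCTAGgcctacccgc
Both proteins are made from 1 RNA, so the difference between MT-ATP8 and MT-ATP6 in counts is not a difference between 2 RNAs. MT-ND4L and MT-ND4, which likewise share an RNA, overlap by 7 bases and were at 4926 to 8681 and 7847 to 12974. How reads over such overlaps were counted is not given in the sources used here.

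With H2O2, each of the 13 mRNAs was lower in both DU145 pairs, by 3.96-fold to 10.2-fold in vector cells and 4.04-fold to 11.9-fold in PAGE4 cells. MT-CO1 was the least lowered, with 517866 counts against 115792 in vector cells and 470647 against 104050 in PAGE4 cells (log2 fold changes -1.98 and -2.01). MT-ATP8 was the most lowered, with 1251 against 108 and 1521 against 114 (log2 fold changes -3.35 and -3.57), followed by MT-ND3 (-3.14 and -2.77). MT-ATP6, on the same RNA as MT-ATP8, changed by -2.26 and -2.13. The 2 DU145 pairs differed by at most 0.36 for any mRNA on the log2 scale, less than the distance of every mRNA from 0. MT-ND6, from the light strand, changed by -2.67 in both pairs, beside -1.98 to -3.35 and -2.01 to -3.57 for the 12 heavy-strand mRNAs. Counts of MT-ND6 were 1.76% and 1.88% of those of the heavy-strand mRNAs with PBS and 1.35% and 1.36% with H2O2.

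**Figure D3:**
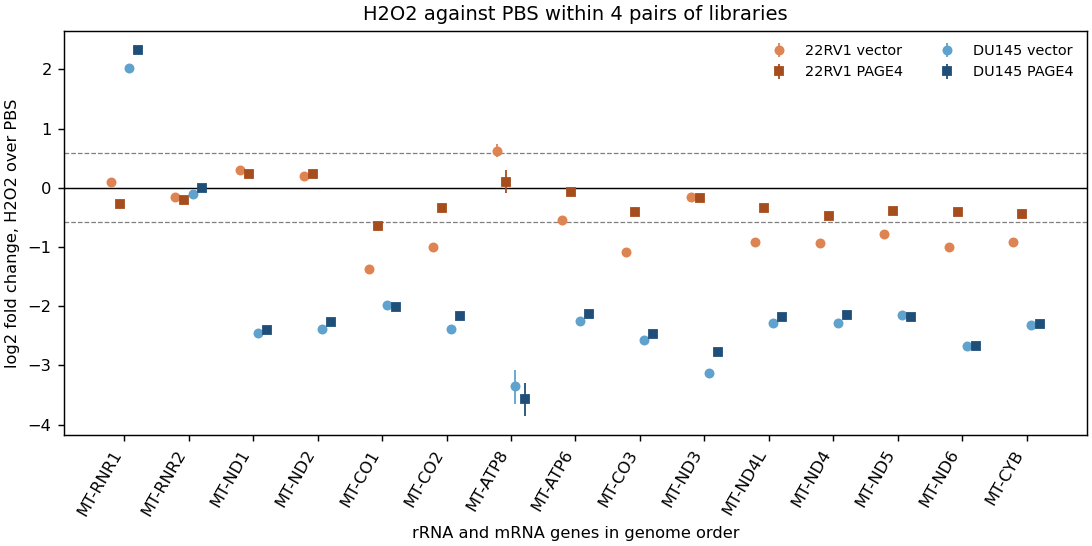
Points give the log2 fold change with H2O2 over PBS of the 2 rRNAs and 13 mRNAs in genome order, for the 4 pairs of libraries; bars are 95% intervals for counting error only, and dashed lines mark 1.5-fold. In DU145 cells all mRNAs lie between -1.98 and -3.57 and MT-RNR1 at 2.02 and 2.33, while in 22RV1 cells MT-ND1 and MT-ND2 lie just above 0 and MT-CO1 lies lowest.

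In 22RV1 cells the mRNAs parted by their place on the transcript. MT-ND1 and MT-ND2, the complex I subunits that come first after the rRNAs, were slightly higher with H2O2, with log2 fold changes of 0.30 and 0.24 for MT-ND1 and 0.20 and 0.23 for MT-ND2 in vector and PAGE4 cells. MT-CO1, the next mRNA, was lower: 868081 counts with PBS and 286223 with H2O2 in vector cells (log2 fold change -1.37), and 706183 and 318662 in PAGE4 cells (-0.65). Of the 11 mRNAs from MT-CO1 on, 8 were more than 1.5-fold lower in vector cells and 1, MT-CO1, in PAGE4 cells. The exceptions in vector cells were MT-ATP6 (-0.55), MT-ND3 (-0.16) and MT-ATP8, which was higher (0.62). The change was smaller in PAGE4 than in vector cells for each of the 11 but MT-ND3, which changed by -0.16 in both. The ratio of MT-ND1 and MT-ND2 to the other mRNAs, which no scaling of the library changes, was 0.144 with PBS and 0.344 with H2O2 in vector cells, and 0.116 and 0.186 in PAGE4 cells. In DU145 cells it was 0.230 and 0.206 in vector cells and 0.232 and 0.209 in PAGE4 cells. As a share of mRNA counts, MT-CO1 went from 24.5% to 16.1% and from 26.8% to 21.9% in 22RV1 cells, and from 16.3% to 20.2% and from 17.1% to 19.6% in DU145 cells. The split at MT-CO1 was chosen after the values were seen.

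The tRNA genes gave the widest differences of the set. Their summed count in DU145 cells was 18086 with PBS and 1157 with H2O2 in vector cells, and 18872 and 758 in PAGE4 cells, which is 13.8-fold and 22.2-fold lower after normalization. In 22RV1 cells the sums were 14187 and 13507 in vector cells and 8654 and 6256 in PAGE4 cells, within 1.11-fold and 1.02-fold after normalization. All 22 were more than 1.5-fold lower with H2O2 in both DU145 pairs, with medians of -4.36 and -5.41 on the log2 scale beside -2.38 and -2.27 for the mRNAs. The minimum mean count was taken over the libraries of a line, with and without H2O2. A tRNA with almost no counts with H2O2 could therefore pass only through its PBS counts, which fixed its direction as lower.

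MT-TN, the asparagine tRNA, had the most counts: 5221 against 498 in DU145 vector cells and 5846 against 373 in DU145 PAGE4 cells. MT-TC, the cysteine tRNA, had 3048 against 108 and 3038 against 54. MT-TT, the threonine tRNA, had 925 against 21 and 840 against 2. Several tRNAs were at 0 with H2O2, so their folds are lower bounds against a floor of 3 counts in the library at 0. MT-TS1, a serine tRNA, was at least 68.4-fold lower in DU145 vector cells (232 counts against 0), and MT-TD, the aspartate tRNA, at least 66.0-fold lower in DU145 PAGE4 cells (222 against 0). MT-TW, the tryptophan tRNA, had 0 counts in both H2O2-treated DU145 libraries and 40 and 45 with PBS. Light-strand tRNAs were 11.8-fold and 19.1-fold lower in sum in DU145 cells and heavy-strand tRNAs 23.6-fold and 36.1-fold lower. MT-TN held 498 of the 956 and 373 of the 618 light-strand counts with H2O2, so these sums and their ratio rest largely on 1 gene. Single genes of the strands overlapped: light-strand MT-TC changed by -4.64 and -5.64 and heavy-strand MT-TS2 by -2.95 and -3.19. The ratio of light-strand to heavy-strand tRNA counts went from 2.37 to 4.76 and from 2.34 to 4.41 in DU145 cells, and from 2.99 to 1.96 and from 3.003 to 2.86 in 22RV1 cells.

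**Figure D4:**
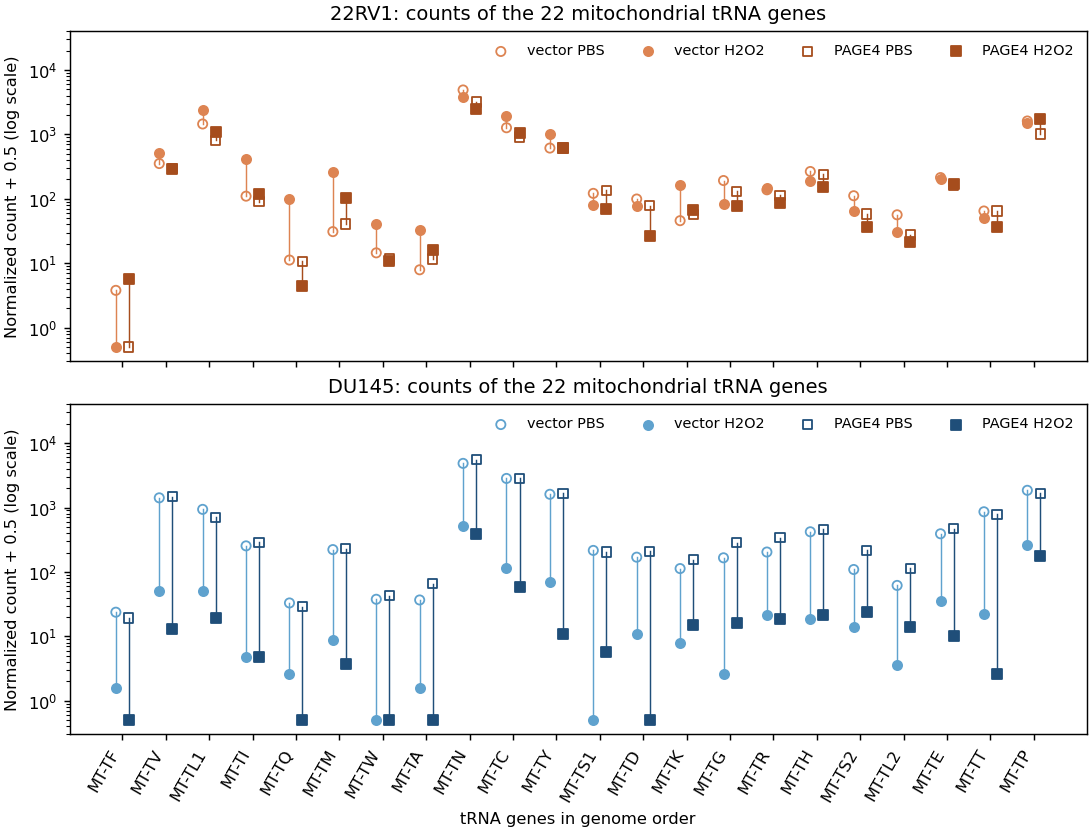
Points give the normalized count plus 0.5, on a log axis, of the 22 tRNA genes in genome order, with open symbols for PBS and filled symbols for H2O2, joined within a pair; circles are vector and squares PAGE4 cells. In DU145 cells all filled symbols lie under the open ones, and in 22RV1 vector cells 8 of the 9 tRNAs from MT-TL1 to MT-TY lie more than 1.5-fold higher with H2O2.

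In 22RV1 vector cells the tRNAs followed the same division by position as the mRNAs. Between MT-RNR2 and MT-CO1 lie 9 tRNAs, and 8 of them were more than 1.5-fold higher with H2O2, all but MT-TN. MT-TQ had 13 counts with PBS and 102 with H2O2 (log2 fold change 3.14), MT-TM 37 and 267 (3.06), MT-TA, the alanine tRNA, 9 and 34 (2.07) and MT-TI 133 and 430 (1.91). MT-TL1, with more counts, had 1763 and 2463 (0.71). Of the 11 tRNAs after MT-CO1, 1 was more than 1.5-fold higher, MT-TK for lysine (55 and 170 counts, 1.84), and 4 were lower: MT-TS1, MT-TG for glycine, MT-TS2 for serine and MT-TL2 for leucine. In 22RV1 PAGE4 cells the tRNAs between MT-RNR2 and MT-CO1 did not show this. There 1 of the 9 was higher, MT-TM (43 and 79 counts, 1.37), and 1 was lower, MT-TQ (11 and 3 counts, log2 fold change -1.27, counting interval -3.86 to 0.55). After MT-CO1, MT-TP for proline was higher in PAGE4 cells (0.75) and 6 were lower. The 22RV1 pairs moved in opposite directions for 7 of the 21 tRNAs that passed the minimum count, so the direction of many tRNAs in this line rests on 1 pair. MT-TF, with 0 to 4 counts, could not be compared in 22RV1 cells.

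Counted against all genes, 10 of the 36 members whose mean normalized count reached 10 were more than 1.5-fold higher and 12 lower with H2O2 in 22RV1 vector cells, where 17.7% of all genes were higher and 19.7% lower. In 22RV1 PAGE4 cells 2 were higher and 8 lower, beside 14.8% and 15.7%. In DU145 vector cells 1 of 37 was higher and 35 lower, beside 19.0% and 21.3%, and in DU145 PAGE4 cells 1 and 35, beside 19.4% and 21.9%. In the edgeR quasi-likelihood fit over the 4 pairs, 0 of 37 members were called higher and 11 lower, beside 8.89% and 11.2% of 22418 genes. For the difference of the H2O2 response between the lines, 1 member, MT-RNR1, was called higher in DU145 than in 22RV1 cells and 34 lower, beside 7.54% and 8.76%. A fit with a term for the line, added after the data were seen, called 1 member higher and 34 lower with H2O2, beside 19.2% and 21.0% of genes (40.2% in all). These counts restate the values that led to the choice of the set. A member with almost no counts with H2O2 could reach the minimum only through its PBS counts, which fixed its call as lower.

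Without H2O2 the set was lower in 22RV1 than in DU145 cells. With the 4 PBS libraries alone, a comparison chosen after seeing the data, edgeR called 34 of 37 members lower in 22RV1 cells and 0 higher, where 30.1% and 32.0% of 20960 genes were called. The 3 not called were MT-TL1, MT-CO1 and MT-CO2. That fit holds nearly as many terms as its 4 libraries, so its p-values rest mostly on spread shared across genes. Among tRNAs MT-TT stood far apart, with 78 and 69 counts in 22RV1 cells and 925 and 840 in DU145 cells (log2 difference -4.23, SE 0.19, adjusted p = 4.51e-09 by edgeR). Among the mRNAs called the differences ran from -0.41 for MT-ND6 to -1.83 for MT-ND3 (17963 and 10312 counts in 22RV1 cells, 32537 and 29555 in DU145 cells). For MT-RNR1 the log2 difference was -1.24 and for MT-RNR2 -0.67. Over all 8 libraries, where the H2O2 response of DU145 cells adds to the spread, only these rRNAs were called (MT-RNR1 -2.35, SE 0.45, adjusted p = 0.00225; MT-RNR2 -0.70, SE 0.11, adjusted p = 0.000718), beside 28.5% of genes called lower and 31.9% higher (60.5% in all). As cpm per kb, with no scaling between the lines, MT-CO1 stood higher in both 22RV1 than in both DU145 libraries with PBS, and the 11 mRNAs called stood lower. The share of counts of all 37 genes was lower in 22RV1 than in DU145 cells by 0.38 on the log2 scale over 4 libraries each, which did not pass a two-sided exact permutation test (p = 0.114, adjusted p = 0.4 over 7 shares and ratios, smallest possible p 0.0286). That test did not match libraries by construct and treatment. Within the 4 matched pairs the share was lower in 22RV1 cells in 4 of 4, and an exact sign-flip test over 4 pairs cannot go below 0.125.

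The study's question was what PAGE4 changes in these cells under oxidative stress. The PBS and H2O2 pairs of a line compare the same pools of cells. The p-values for PAGE4 below therefore do not measure the spread between separate infections. Over the 4 pairs of PAGE4 and vector cells, edgeR called 1 of 37 members, MT-TL1, which was lower with PAGE4, where 0.0758% of 22418 genes were called lower and 0.0981% higher. Its counts in vector and PAGE4 cells were 1763 and 870 in 22RV1 with PBS, 2463 and 838 in 22RV1 with H2O2, 1008 and 753 in DU145 with PBS and 48 and 18 in DU145 with H2O2. The fitted log2 fold change was -0.85 (SE 0.13, adjusted p = 0.0316), it was lower in 4 of 4 pairs, and the call was lost when either 22RV1 pair was left out. A fit with a term for a different PAGE4 effect in each line, added after the data were seen, called 8 members lower and 0 higher, beside 0.834% and 0.665% of genes: MT-RNR2, MT-TL1, MT-ND1, MT-ND2, MT-TN, MT-TC, MT-ATP8 and MT-ND3. In that fit MT-ND1 had a log2 fold change of -0.37 (SE 0.04, adjusted p = 1.67e-05) and MT-RNR2 of -0.20 (SE 0.03, adjusted p = 0.00152). It holds nearly as many terms as libraries, so these p-values rest mostly on spread shared across genes. Without the term neither was called (adjusted p = 0.139 and 0.234), although 12 of 37 members had an unadjusted p under 0.05, as did 1731 of all 22418 genes.

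The PAGE4 difference differed between the lines for 5 members by edgeR, MT-ND1, MT-ND2, MT-ND3, MT-ATP8 and MT-TS2. In each it was lower in 22RV1 relative to DU145 cells, where 0.977% of genes were called in this direction, and 0 members were called in the other. MT-ND1 had 222154 counts in vector and 135138 in PAGE4 cells with PBS in 22RV1, and 233202 and 112860 with H2O2, which are log2 fold changes of -0.54 and -0.60. In DU145 cells it changed by -0.18 and -0.13, and the difference between the lines was 0.41 (SE 0.08, adjusted p = 0.00667). MT-ND2 changed by -0.52 and -0.49 in 22RV1 cells and -0.17 and -0.06 in DU145 cells (difference 0.38, SE 0.08, adjusted p = 0.0132). MT-ND3 changed by -0.62 and -0.63, and -0.12 and 0.24 (difference 0.68, SE 0.11, adjusted p = 0.0031). These 3 mRNAs were lower with PAGE4 in both 22RV1 pairs by a similar amount, with or without H2O2. Both pairs compare the same pools, so PAGE4 and any other difference between the pools cannot be told apart. MT-ATP8 had 1124 and 516 counts with PBS and 1481 and 392 with H2O2 in 22RV1 vector and PAGE4 cells, against 1251 and 1521, and 108 and 114, in DU145 cells (difference 1.43, SE 0.21, adjusted p = 0.000773). MT-ATP6, on the same RNA, was not called. It changed by -0.42 with PBS and 0.06 with H2O2 in 22RV1 cells and by -0.25 and -0.12 in DU145 cells. MT-TS2 had the fewest reads, 135 and 62 with PBS and 67 and 27 with H2O2 in 22RV1 and 117 and 230, and 13 and 22, in DU145 cells (difference 1.84, SE 0.44, adjusted p = 0.0402), and its call was lost without the DU145 PBS pair.

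**Figure D5:**
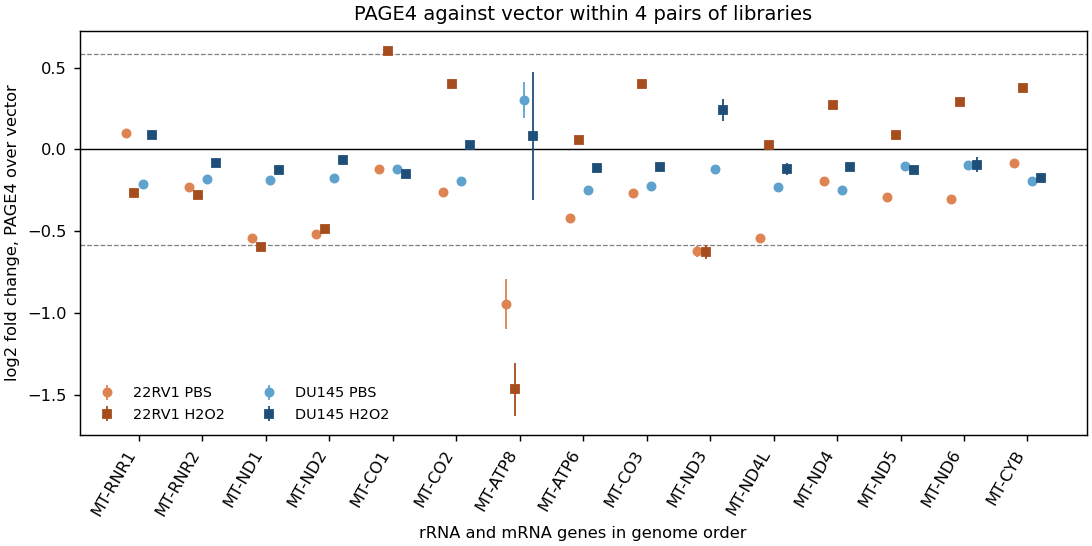
Points give the log2 fold change of PAGE4 over vector cells for the 2 rRNAs and 13 mRNAs in genome order, in 4 pairs of libraries; bars are 95% intervals for counting error only, and dashed lines mark 1.5-fold. MT-ND1, MT-ND2, MT-ND3 and MT-ATP8 lie between -0.49 and -1.47 in both 22RV1 pairs, and from MT-CO1 on the 22RV1 pair with H2O2 mostly lies above 0.

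Within pairs, 7 of 36 members were more than 1.5-fold lower and 0 higher with PAGE4 in 22RV1 cells with PBS, where 11.3% and 8.35% of all genes were, and 17 were lower and 1, MT-CO1, higher with H2O2, beside 12.1% and 11.1%. In DU145 cells with PBS 0 of 37 were lower and 5 higher, beside 7.76% and 7.54%, and with H2O2 11 were lower and 5 higher, beside 8.2% and 7.0%. All 16 of the latter were tRNAs with at most 108 counts in either library. The share of all counts taken by the set was lower with PAGE4 in 4 of 4 pairs, by 0.13 on the log2 scale on average, with an exact two-sided sign-flip p of 0.125, the smallest that 4 pairs allow. Pairs of the same line share their pools and are not independent.

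Whether PAGE4 changed the response to H2O2 was tested as the difference between the H2O2 changes of PAGE4 and vector cells. In the edgeR fit 0 of 37 members and 0 of 22418 genes were called (0.0% in either direction), 0 members and 59 genes had an unadjusted p under 0.05, and DESeq2 also called 0. This fit holds no term for the line, so the large difference between 22RV1 and DU145 counts as spread. With a term for a different H2O2 response in each line, added after the data were seen, 5 members were called higher and 1 lower, beside 0.0758% and 0.116% of genes. MT-CO1, MT-CO2, MT-ATP6, MT-CO3, which encodes a further subunit of cytochrome c oxidase, and MT-ND4 of complex I had a fitted H2O2 change that was higher in PAGE4 than in vector cells, by 0.31 to 0.45 on the log2 scale. For MT-TY, the tyrosine tRNA, it was lower (-1.21, SE 0.24, adjusted p = 0.000543), and its H2O2 change in single pairs was 0.73 (vector) and -0.02 (PAGE4) for 22RV1, -4.52 (vector) and -7.23 (PAGE4) for DU145. For MT-CO2 the difference was 0.45 (SE 0.07, adjusted p = 3.84e-06). Taken within a line, it was 0.67 in 22RV1 and 0.22 in DU145 cells, and each of the 5 mRNAs differed more in 22RV1 cells. The fit gives 1 value for both lines. It holds nearly as many terms as libraries, so its p-values rest mostly on spread shared across genes. The H2O2 change of MT-CO1 was -1.37 with the vector and -0.65 with PAGE4 in 22RV1 cells but -1.98 and -2.01 in DU145 cells, so the difference lay in the 22RV1 pairs.

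Nuclear DNA carries copies of mitochondrial genes that can share reads with them. The tables list 386 such copies by symbol, of which 20 had a mean count of at least 10. Their summed counts relative to the parent gene were highest for MT-ND2 (3.19% to 5.43%) and MT-ATP6 (3.05% to 5.96%), at most 2.04% for MT-ATP8 and at most 0.388% for the other mRNAs. For MT-RNR2 they were at most 0.026%, and no listed symbol names a copy of MT-RNR1. MTND2P28, the copy with the most reads, had 11383 counts with PBS and 1832 with H2O2 in DU145 vector cells, a log2 fold change of -2.46 beside -2.38 for MT-ND2. MTATP6P1 had 11255 and 3060 (-1.70, beside -2.26 for MT-ATP6).

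Nuclear genes for the machinery of mitochondrial RNA were tested with the same edgeR fits. Of 16 genes of mtDNA transcription and the nucleoid, 3 rose over the 4 H2O2 pairs and 0 fell, where 8.89% of all genes rose and 11.2% fell, with a median log2 change of 0.14 beside -0.03 for all genes. They were C10orf2, the Twinkle helicase (0.76, SE 0.18, adjusted p = 0.0239), POLG, the mtDNA polymerase (0.46, adjusted p = 0.0231), and SSBP1, which binds single-stranded mtDNA (0.37, adjusted p = 0.0422). All 3 act in mtDNA replication, and none was called without the DU145 vector pair or without the DU145 PAGE4 pair, nor POLG and SSBP1 without the 22RV1 vector pair. Of the transcription proteins, POLRMT, the RNA polymerase, had -0.11 (adjusted p = 0.431), TFAM, which packages mtDNA and starts transcription, 0.33 (0.209) and TFB2M, its partner at the promoter, 0.41 (0.152). The response to H2O2 was higher in DU145 than in 22RV1 cells for 7 of the 16 and lower for 0, beside 7.54% and 8.76% of all genes. TFAM had 1692 normalized counts with PBS and 2701 with H2O2 in DU145 vector cells and 1586 and 2887 in PAGE4 cells, against 1411 and 1410, and 1506 and 1385, in 22RV1 cells (difference 0.79, adjusted p = 0.000565). TFB2M differed by 0.86 (adjusted p = 0.000652).

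Of 40 genes of mitochondrial RNA processing, modification and decay, 6 rose and 2 fell with H2O2 (median 0.09), beside 8.89% and 11.2% of all genes. NSUN4, which methylates the small-subunit rRNA and takes part in ribosome assembly, rose by 0.63 (SE 0.10, adjusted p = 0.00609), FASTKD5, which acts in processing of mitochondrial mRNAs, by 0.60 (adjusted p = 0.00873), PDE12, which removes poly(A) tails, by 0.52 (adjusted p = 0.00832), and SUPV3L1, the helicase of the RNA-degrading complex, by 0.53 (adjusted p = 0.0136). KIAA0391, the nuclease subunit of mitochondrial RNase P, which cuts at the 5′ end of tRNAs, fell by 0.92 (SE 0.17, adjusted p = 0.00968). Its normalized counts with PBS and H2O2 were 399 and 170, and 351 and 274, in 22RV1 vector and PAGE4 cells and 851 and 412, and 765 and 408, in DU145 cells. It was called in each of the 4 fits that left out a pair, as were NSUN4, FASTKD5 and PDE12, while SUPV3L1 was not called without either DU145 pair. PNPT1, the exoribonuclease that works with SUPV3L1, had -0.06 (adjusted p = 0.722), and LRPPRC and SLIRP, which together bind and stabilise mitochondrial mRNAs, 0.04 (0.811) and 0.26 (0.117). Among proteins that act on the small-subunit rRNA, TFB1M had -0.12 (0.653), RBFA -0.18 (0.332) and ERAL1 0.10 (0.675), and ERAL1 responded more in DU145 than in 22RV1 cells (0.63, adjusted p = 0.00159). The response differed between the lines for 10 of the 40, higher in DU145 for 9 and lower for 1, beside 7.54% and 8.76% of all genes.

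For the next 3 lists the shares of all genes that rose and fell with H2O2 are the same 8.89% and 11.2%. Of 30 proteins of the small mitoribosomal subunit, 0 rose and 3 fell, MRPS27 (-0.47, adjusted p = 0.0149), MRPS25 (-0.40, adjusted p = 0.0218) and MRPS33 (-0.38, adjusted p = 0.04). Of 52 of the large subunit, 9 rose and 3 fell, among them MRPL10 (0.51, adjusted p = 0.00836) and MRPL24 (-0.65, adjusted p = 0.00434). Of 18 housekeeping proteins of the organelle, 3 rose and 1 fell: TIMM44, an import motor subunit (0.65, adjusted p = 0.00624), HSPA9, the matrix chaperone (0.44, adjusted p = 0.0214), and TIMM23, an import channel (0.37, adjusted p = 0.0433), rose, and CS, citrate synthase (-0.32, adjusted p = 0.0282), fell. MRPL10, MRPL24 and TIMM44 were called in each of the 4 fits that left out a pair. MRPS27, HSPA9 and TIMM23 were not called without the 22RV1 vector pair or without either DU145 pair, and MRPS25, MRPS33 and CS were called in 0 of the 4. The response to H2O2 was also higher in DU145 than in 22RV1 cells for 9 of the 18 housekeeping genes, and lower for 0. It was higher for 8 of the 52 and 5 of the 30 mitoribosomal genes, and lower for 0 and 1. Of all genes, 7.54% and 8.76% were called. A higher response in DU145 cells was thus not particular to genes of transcription and RNA processing. With PAGE4, 0 of the genes in any of the 5 lists were called over the 4 pairs.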

How the data were processed

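RNA-seq libraries of 22RV1 and DU145 cells (8 conditions, 1 library each) were analysed. HISAT2 2.1.0 (mapping to GRCh38) and featureCounts 1.6.0 (counting) were the authors' tools. Raw gene counts were deposited, in 1 table per line. Annotation, strand setting, library selection and the treatment of reads over several genes are not given in the sources used here. Labels name Trizol for extraction and the methods a column kit. Labels and methods give 200 mM H2O2, but a legend of the paper gives a lower dose.

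Members and gene lists were chosen with earlier results of these data known. Folds used DESeq2 1.42.0 size factors within a line, a pseudocount of 0.5, a mean normalized count of at least 10 and a limit of 1.5-fold. Tests across all genes were quasi-likelihood F tests in edgeR 4.0.16 (R 4.3.3; TMM, filterByExpr, blocks of pairs), with Benjamini-Hochberg adjusted p under 0.05. The pairs stand in for replicates, so p-values rest on the spread between pairs and on the spread that edgeR shares across genes. The shared part weighs most in fits with a term for the line and in the PBS libraries alone. Such fits hold nearly as many terms as libraries. Gene positions are those of GENCODE release 44. The fits were tested on simulated data. Named were all mRNAs and rRNAs, tRNAs with a mean of at least 10 counts (MT-TF, under it, was named after its values were seen), fixed nuclear genes, and up to 4 genes a list with the smallest adjusted p. Alternatives were other normalizations, filters, limits, DESeq2's Wald test, pairs left out, and, added after the data were seen, terms for the line and the PBS libraries alone.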

Additional observations from a re-analysis of the deposited data

Results flagged for a closer look

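Members whose H2O2 change had opposite signs in the lines, in every pair of libraries, stood out. The set was chosen with these H2O2 values known, so they are a description, and the edgeR calls for the difference between the lines are no independent evidence of it. The mean log2 fold change of the 2 pairs was 0.27 in 22RV1 and -2.43 in DU145 cells for MT-ND1, 0.22 and -2.33 for MT-ND2, and 0.36 and -3.46 for MT-ATP8. MT-ATP6, on the same RNA as MT-ATP8 and with far more counts, had -0.31 and -2.19. The values of MT-ATP8 therefore cannot be read as those of that RNA. For tRNAs the mean was 0.58 and -4.69 for MT-TL1, 1.15 and -5.85 for MT-TI, and 2.21 and -5.31 for MT-TM. It was 1.28 and -5.8 for MT-TA, 0.4 and -5.14 for MT-TC, and 1.03 and -3.59 for MT-TK. Several tRNAs had few or no counts in DU145 cells with H2O2, and the size of their folds then depends on the pseudocount. MT-TA changed by -4.57 (vector) and -7.03 (PAGE4) in DU145 cells, and by 2.07 and 0.48 in 22RV1 cells. The mean of such a tRNA gives a direction, not a measured size.

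The PAGE4 difference differed between the lines by the test of that difference in edgeR for 5 members: by 0.41 on the log2 scale for MT-ND1, 0.38 for MT-ND2, 1.43 for MT-ATP8, 0.68 for MT-ND3 and 1.84 for MT-TS2, each higher in DU145 relative to 22RV1 cells. MT-ATP6, which shares its RNA with MT-ATP8, was not called. Within a line both pairs compare the same pools of cells, so a difference between pools cannot be told apart from PAGE4.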

How the results depend on the processing

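Each condition has 1 library, and pairs of libraries stand in for replicates. The labels carry no replicate numbers, so no fit could be blocked by them. Without the filter on low counts, edgeR called 33 members for H2O2 (11 with it), 1 gene for the H2O2 response differing by construct (0), 483 genes and 12 members for PAGE4 (39 and 1), 806 genes and 12 members for PAGE4 differing between the lines (413 and 5), and 12 members between the lines (2). DESeq2's Wald test called 87 genes and 2 members for PAGE4 and 1 member between the lines. The main fits called 20.1% of all genes for H2O2 and 60.5% between the lines. Where members stand alone here, the share of all genes at that setting is not given, so the count does not set members apart from other genes. With a term for the line, added after the data were seen, H2O2 called 9017 genes (4506) and 35 members, the response differing by construct 43 genes and 6 members, and PAGE4 336 genes and 8 members; the PBS libraries alone called 34 members between the lines.

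Leaving out each pair gave 1974 to 3880 genes and 2 to 16 members for H2O2, 2121 to 4248 genes (3655) and 35 to 36 members for its difference between the lines, 0 to 34 genes and 0 to 9 members by construct, 10 to 76 genes and 0 to 2 members for PAGE4, 244 to 1240 genes and 5 to 17 members for PAGE4 between the lines, and 11705 to 12078 genes and 2 to 6 members between the lines. The 9 came without the DU145 vector pair, which leaves vector cells of 22RV1 alone, and the 17 without the 22RV1 PBS pair.

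Within pairs, total counts left 5 members lower with H2O2 in 22RV1 PAGE4 cells (8), no count minimum gave 2 higher with PAGE4 in 22RV1 cells with H2O2 (1), and a mean of at least 50 gave 3 higher in DU145 cells with PBS (5). Beyond 2-fold, H2O2 left 6 higher and 5 lower in 22RV1 vector cells and 1 and 2 in 22RV1 PAGE4 cells, and PAGE4 left 1 lower in 22RV1 cells with PBS, 0 higher and 9 lower with H2O2, 0 higher in DU145 cells with PBS and 3 with H2O2. No call changed direction in any of these. The shares of all genes at these settings are not given here, so the counts do not set members apart from other genes.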
